A study of Homo sapiens with 2 samples.

Results

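The actin cytoskeleton transcripts described here are 49 genes that build, cut, cap, crosslink, contract and anchor actin filaments, and the small GTPases that direct them. They were taken from a fixed list of gene symbols. A site belonged to a gene when its deleted base lay between the ends of that gene in GENCODE release 44, on the same strand. Genes without such a site were counted as unbound. In total, 43 of the 49 genes held at least 1 site, and together they held 307 of the 27706 sites in the list.

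Binding of the RNA-binding protein RBMS3 was measured by crosslinking, immunoprecipitation and sequencing (CLIP-seq) in MDA-MB-231, an established human triple-negative breast cancer line. There was 1 group of 2 biological replicates, and sites were called after these were pooled. The cells carried RBMS3 with an N-terminal FLAG tag, delivered by a lentivirus, so the sites are those of an added and tagged protein rather than of the cells' own. The title of replicate 2 gives the line as MDA-MB-231, but its source and cell line labels read MDA-MB-232. No untreated, untagged or input library was analysed here. Levels of mRNA, which the study measured in this line in other experiments, were not used. The spread between replicates is not known for any value.

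Actin monomers polymerise into filaments that shape the cell, carry its movement and resist tension. The Arp2/3 complex starts branches, profilins and thymosins hold monomers, cofilins cut filaments, capping proteins stop their growth, and nonmuscle myosin II pulls on them. In breast cancer cells this machinery is best known for its part in migration and invasion.

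A site is a base that was missing from sequenced fragments. Ultraviolet light joins protein to RNA, and the reverse transcriptase tends to skip a base at the join. Each site has a number of tags, the unique fragments that cover it, and a number of deletions, the tags that lack the base. The deletion percentage is the second over the first. Intervals in brackets are 95% Wilson intervals, which cover counting error only. They treat sites as independent, which neighbouring sites of a gene are not, so intervals for shares of sites are too narrow.

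Neighbouring same-strand sites no more than 50 nt apart were joined into clusters, and the site with the most deletions stood for the cluster. The site with the most deletions in each of the 12 role groups is printed first, to show the sequence around it. Each line gives the gene, its 29 bases in hg38 with the strand, and the sequence from 5′ to 3′ in DNA letters. Capitals mark the run of equal bases in which the deletion lies. A deletion within a run cannot be placed exactly, and the list puts it at the lowest coordinate, base 15 here.
ACTG1 (chr17:81509978-81510006, minus strand): ttgtgtaaggAAAAAtaaaagtgctgccg
ARPC2 (chr2:218254324-218254352, plus strand): taataaagaaaatcTTTctatcttacatg
PFN1 (chr17:4945664-4945692, minus strand): tggggTTTTTTTTTTctgaataaaaaaga
CFL1 (chr11:65854811-65854839, minus strand): attAAAAAAAAAAAAgacaataataaaaa
CAPZA1 (chr1:112671590-112671618, plus strand): tagaaatatacctgTTTTgttctaaaatt
ACTN4 (chr19:38730077-38730105, plus strand): attttctaagaaccAAAAAAAAAAAAgga
TPM4 (chr19:16102910-16102938, plus strand): aataaaatccacacTTTagattcttgcaa
CNN3 (chr1:94896952-94896980, minus strand): ataaataTTTTTTTTgaactttcatatga
MYL12A (chr18:3256209-3256237, plus strand): aatcataattaaacTTTatgataaaatac
MSN (chrX:65741903-65741931, plus strand): cagtgccaataaaaTTTaggaagacttca
VCL (chr10:74119957-74119985, plus strand): tatgccggatgtgcTTTTctccaatatca
RAC1 (chr7:6403944-6403972, plus strand): gacttaataaatccTTgaatcatacgact
In 9 of the 12 the deleted base was T (U in the RNA), and in ACTG1, CFL1 and ACTN4 it was A. All 12 lay in a 3′UTR.

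Sites were common in this machinery. The 43 genes with a site were 87.8% of the 49 (interval 75.8 to 94.3%), against 37.6% of all 20046 protein-coding genes. The same 43 genes had a site in a 3′UTR, against 31.8% of protein-coding genes. A 3′UTR site within 100 nt upstream of an annotated 3′ end was present in 34 genes (69.4%, interval 55.5 to 80.5%), against 24.9%. A site with deletions in under 30% of its tags was present in 41 genes (83.7%, interval 71.0 to 91.5%), against 29.1%. These shares describe the list of genes and were not tested, and the part of mRNA level in them was not tested.

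The genes with a site also had more and deeper sites than protein-coding genes with a site in general. The median was 5 sites a gene against 2, and the most was 28, in ACTN4. The median over genes of the most deletions at 1 site was 282, against 70. The median over genes of the highest tag number at a site was 13757, against 2561.5. Of the 43 genes, 5 had 1 site, 26 had 2 to 9, and 12 had 10 or more. Those 12 genes held 192 of the 307 sites.

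The depth of a site and its deletion percentage moved in opposite directions. A site in these transcripts had a median of 13085 tags (range 7 to 70314), against 3602 over the sites of all protein-coding genes, and a median deletion percentage of 1.10%, against 2.49%. The 307 sites fell into 2 classes. At 275 (89.6%, interval 85.7 to 92.5%) under 30% of the tags had the deletion, with a median of 14042 tags, against 75.6% of the sites of all protein-coding genes. At the other 32, in 22 genes, 30% or more had it, with a median of 17.5 tags. In the whole list no site under 30% had fewer than 110 tags and no site had fewer than 7 deletions, so thin cover entered the list only at high percentages.

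**Figure D1:**
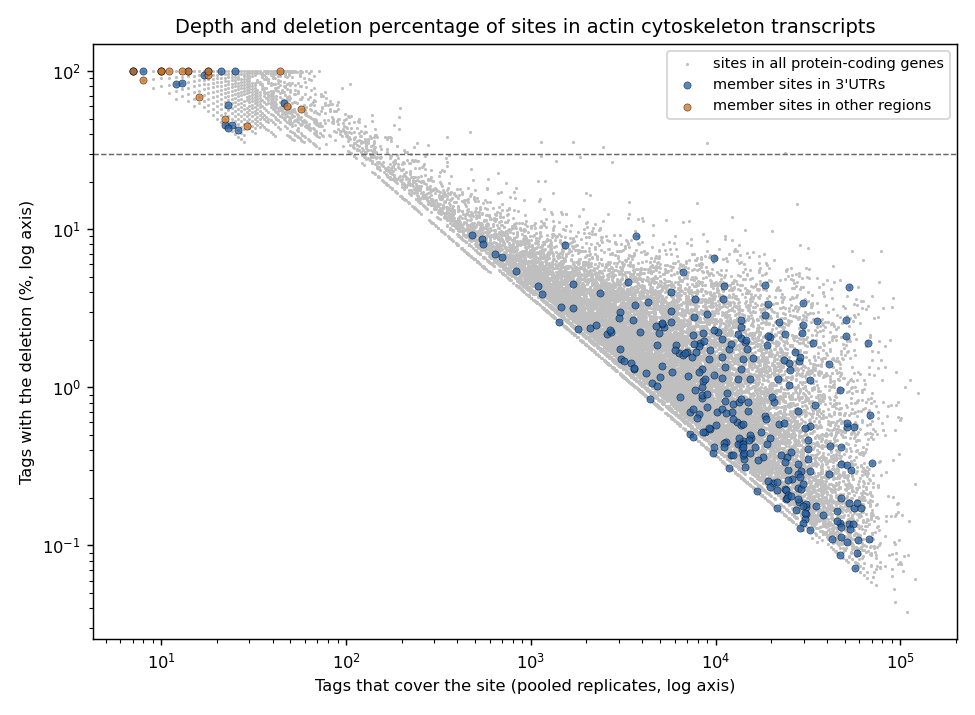
Tags that cover a site (log axis) and the percentage of those tags with the deletion (log axis), for sites in the 49 genes (blue in 3′UTRs, orange in other regions) over the sites of all protein-coding genes (grey), with a dashed line at 30%. The orange points all lie above the line at 57 tags or fewer, and 275 of the 292 blue points lie below it.

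Nearly all sites were in 3′UTRs. The 3′UTR held 292 of the 307 sites (95.1%, interval 92.1 to 97.0%), against 84.7% for all protein-coding genes. Introns held 6 sites, coding sequence 4, 5′UTRs 3 and noncoding exons 2. All 15 sites outside 3′UTRs had deletions in 30% or more of their tags (interval 79.6 to 100%), against 88.6% of such sites in all protein-coding genes. Of the 292, 7 lay in a 3′UTR only of a transcript other than the gene's representative one. Among these 7 was a deep RDX site (113 of 6836 tags, 1.65%), which is coding sequence in the representative transcript.

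Within 3′UTRs, 168 sites (57.5%, interval 51.8 to 63.1%) lay within 100 nt of the next annotated 3′ end downstream, against 65.8% for all protein-coding genes. The median distance was 69.5 nt, against 38 nt. Counted by cluster, 40 of 79 (50.6%, interval 39.8 to 61.4%) were near an end, against 55.8%, which lies inside that interval. Among sites in the under-30% class the share near an end was 167 of 275 (60.7%, interval 54.8 to 66.3%), against 72.6%. Among the 17 3′UTR sites with 30% or more it was 1 of 17, against 20.04%. The library was made by adding a poly(A) tail to the recovered RNA and copying it from oligo(dT), steps that RNA with a poly(A) tail of its own can also pass. The part of these steps in the distances was not tested.

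**Figure D2:**
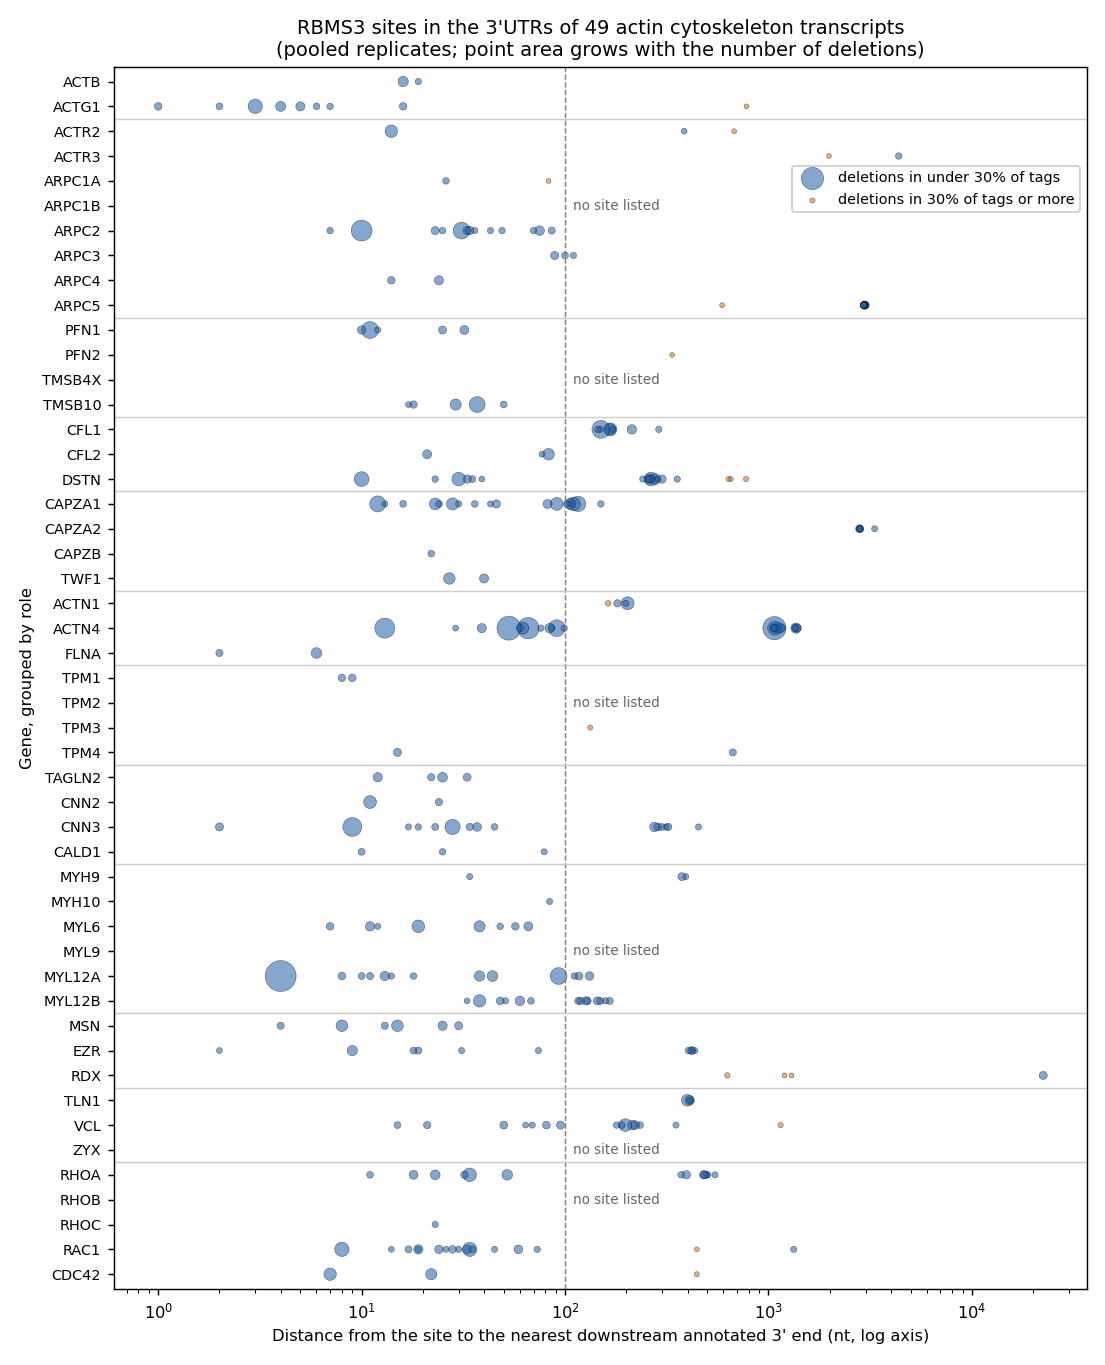
Distance from each 3′UTR site to the next annotated 3′ end downstream (nt, log axis) for the 49 genes in their role groups, with point area growing with the number of deletions and colour giving the class of deletion percentage. The dashed line marks 100 nt, which 168 of the 292 sites do not pass, and 6 genes have no site listed.

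Both actins, the monomers of the filament, had sites close to their 3′ ends. ACTB, beta-actin, had only 2 sites, both 3′UTR, and at the larger (chr7, position 5527172, 16 nt from an end) 212 of 7662 tags had the deletion (2.77%, interval 2.42 to 3.16%). ACTG1, gamma-actin, had 9, and at its largest (chr17, position 81509992, 3 nt from an end) 454 of 47474 tags had it (0.956%, interval 0.873 to 1.05%). The ACTG1 site thus had more tags and deletions and a lower percentage than the ACTB site. One thin ACTG1 site, 11 of 26 tags at position 81510788, was 3′UTR in 1 transcript and coding sequence in the representative one.

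Of the 8 genes of the Arp2/3 complex, which starts filament branches, 7 had a site and ARPC1B had none. ARPC2 had 13 sites in 2 clusters, each at an annotated end. At the downstream one, 1010 of 29600 tags had the deletion (3.41%, interval 3.21 to 3.62%) 10 nt from the end, and at the upstream one 643 of 29243 (2.20%, interval 2.04 to 2.37%) 31 nt from another end. Both ends of this transcript were thus covered to about the same depth. ACTR2 had 3 clusters. The one 14 nt from the end had 334 of 3712 tags with the deletion (8.998%, interval 8.12 to 9.96%), and those 385 and 678 nt from it had 37 of 1421 tags and 10 of 10.

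The largest sites of 3 other subunits had fewer tags than those of ARPC2. The deletion was present in 156 of 3364 tags in ARPC4 (4.64%, interval 3.98 to 5.40%, 24 nt from an end), 115 of 7434 in ARPC3 (1.55%, interval 1.29 to 1.85%, 89 nt) and 56 of 2578 in ARPC1A (2.17%, interval 1.68 to 2.81%, 26 nt). ARPC5 and ACTR3 had no site within 100 nt upstream of an annotated end. The ARPC5 cluster of 11 sites lay 2977 nt from the next one downstream at its largest site, with 126 of 5262 tags (2.39%, interval 2.01 to 2.84%). The larger of the 2 ACTR3 sites lay 4367 nt from one, with 56 of 2266 tags (2.47%, interval 1.91 to 3.20%), and the other had 8 of 8 tags at 1985 nt.

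Among the proteins that bind actin monomers, PFN1 and TMSB10 had deep sites near their ends, PFN2 had 1 thin site and TMSB4X had none. In PFN1, profilin 1, 650 of 19343 tags had the deletion (3.36%, interval 3.12 to 3.62%) 11 nt from the end, in the run of 10 T printed above. In TMSB10, thymosin beta 10, it was 571 of 22135 (2.58%, interval 2.38 to 2.80%) at 37 nt. The only PFN2 site had the deletion in 7 of 7 tags, 336 nt from an end.

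All 3 genes whose products sever filaments had sites. In CFL1, cofilin 1, 734 of 29632 tags had the deletion (2.48%, interval 2.31 to 2.66%) in the run of 12 A printed above, 150 nt from the next end, and none of its 9 sites was within 100 nt of one. CFL2 had 2 clusters, each within 100 nt of an annotated end, with 282 of 7785 tags (3.62%, interval 3.23 to 4.06%) at 83 nt and 151 of 4330 (3.49%, interval 2.98 to 4.08%) at 21 nt. DSTN, destrin, had 19 sites in 5 clusters, the most clusters in 3′UTRs among the 49 genes. Its last cluster was 10 nt from an end with 485 of 11153 tags (4.35%, interval 3.99 to 4.74%). The one 265 nt from that end had more tags and a lower percentage, 419 of 28375 (1.48%, interval 1.34 to 1.62%). The others had 50 of 2102 tags at 356 nt, 11 of 24 at 636 nt and 18 of 18 at 776 nt.

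The capping protein subunits and twinfilin all had sites. CAPZA1 had 19, with 581 of 41363 tags (1.40%, interval 1.30 to 1.52%) at its largest, 12 nt from its end. Its paralogue CAPZA2 had 6, none near an end, with 117 of 9775 tags (1.197%, interval 1.00 to 1.43%) at 2809 nt and 42 of 1795 at 3325 nt. CAPZB had a single site of 61 of 2710 tags (2.25%, interval 1.76 to 2.88%) at 22 nt. TWF1, twinfilin 1, had 277 of 14397 (1.92%, interval 1.71 to 2.16%) at 27 nt.

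The crosslinker ACTN4, alpha-actinin 4, held the most sites of the 49 transcripts. Its 28 sites, all in 3′UTRs and all under 30%, formed 3 clusters, and 1 of them had 70314 tags, the most of any site in these genes. The first cluster had 1360 of 50878 tags (2.67%, interval 2.54 to 2.82%) 53 nt from an annotated end, in a run of 12 A. Another site of this cluster, 929 of 35475 tags, lay 13 nt from the same end in a run of 14 A. The part of these runs in the deletions was not tested. The second cluster, just past that end, had 208 of 11830 tags (1.76%, interval 1.54 to 2.01%) 1365 nt from the next end downstream. The third had 1276 of 67266 (1.90%, interval 1.80 to 2.00%) 1070 nt from it. ACTN1 had its largest site 203 nt from the next end downstream and just past an earlier end, with 365 of 13702 tags (2.66%, interval 2.41 to 2.95%). Another site, with 29 of 46 tags, lay 163 nt before that earlier end. FLNA, filamin A, had 2 sites, with 228 of 12135 tags (1.88%, interval 1.65 to 2.14%) at 6 nt.

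Tropomyosins, which run along the filament, had the fewest sites of the 12 groups, 5 over 4 genes. TPM4 had 114 of 6141 tags (1.86%, interval 1.55 to 2.23%) at 15 nt and 76 deletions (4.47% of tags) at 668 nt. TPM1 had 94 of 8562 (1.10%, interval 0.898 to 1.34%) at 9 nt, in a 3′UTR that its representative transcript does not have. The same held for the only TPM3 site, 14 of 14 tags, and TPM2 had none.

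The calponin family and caldesmon also bind along filaments, and all 4 genes had sites within 100 nt of an end. CNN3, calponin 3, had 16 sites. The deletion was present in 821 of 18457 tags (4.45%, interval 4.16 to 4.76%) 9 nt from its end, in 171 of 8662 (1.97%, interval 1.70 to 2.29%) at 275 nt and in 47 of 701 (6.70%, interval 5.08 to 8.80%) at 453 nt. CNN2 had 357 of 6652 tags (5.37%, interval 4.85 to 5.93%) at 11 nt. TAGLN2, transgelin 2, had 188 of 8586 (2.19%, interval 1.90 to 2.52%) at 25 nt, and CALD1 70 of 5114 (1.37%, interval 1.09 to 1.73%) at 10 nt.

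Nonmuscle myosin II had 42 sites in 5 of its 6 genes, most of them in light chains. MYL12A, a regulatory light chain, held the site with the most deletions in the 49 genes, 2294 of 52883 tags (4.34%, interval 4.17 to 4.51%), 4 nt from an annotated end (chr18, position 3256223). Its neighbour and close paralogue MYL12B had 328 of 25436 (1.29%, interval 1.16 to 1.44%) at 38 nt. The 2 genes had 14 and 15 sites, but the intervals of these percentages did not overlap. MYL6, the essential light chain, had 349 of 23411 tags (1.49%, interval 1.34 to 1.65%) at 19 nt. The heavy chains were shallower, with 108 of 4917 tags in MYH9 (2.20%, interval 1.82 to 2.65%, 375 nt) and 47 of 546 in MYH10 (8.61%, interval 6.54 to 11.3%, 84 nt). MYL9, another regulatory light chain gene, had no site.

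**Figure D3:**
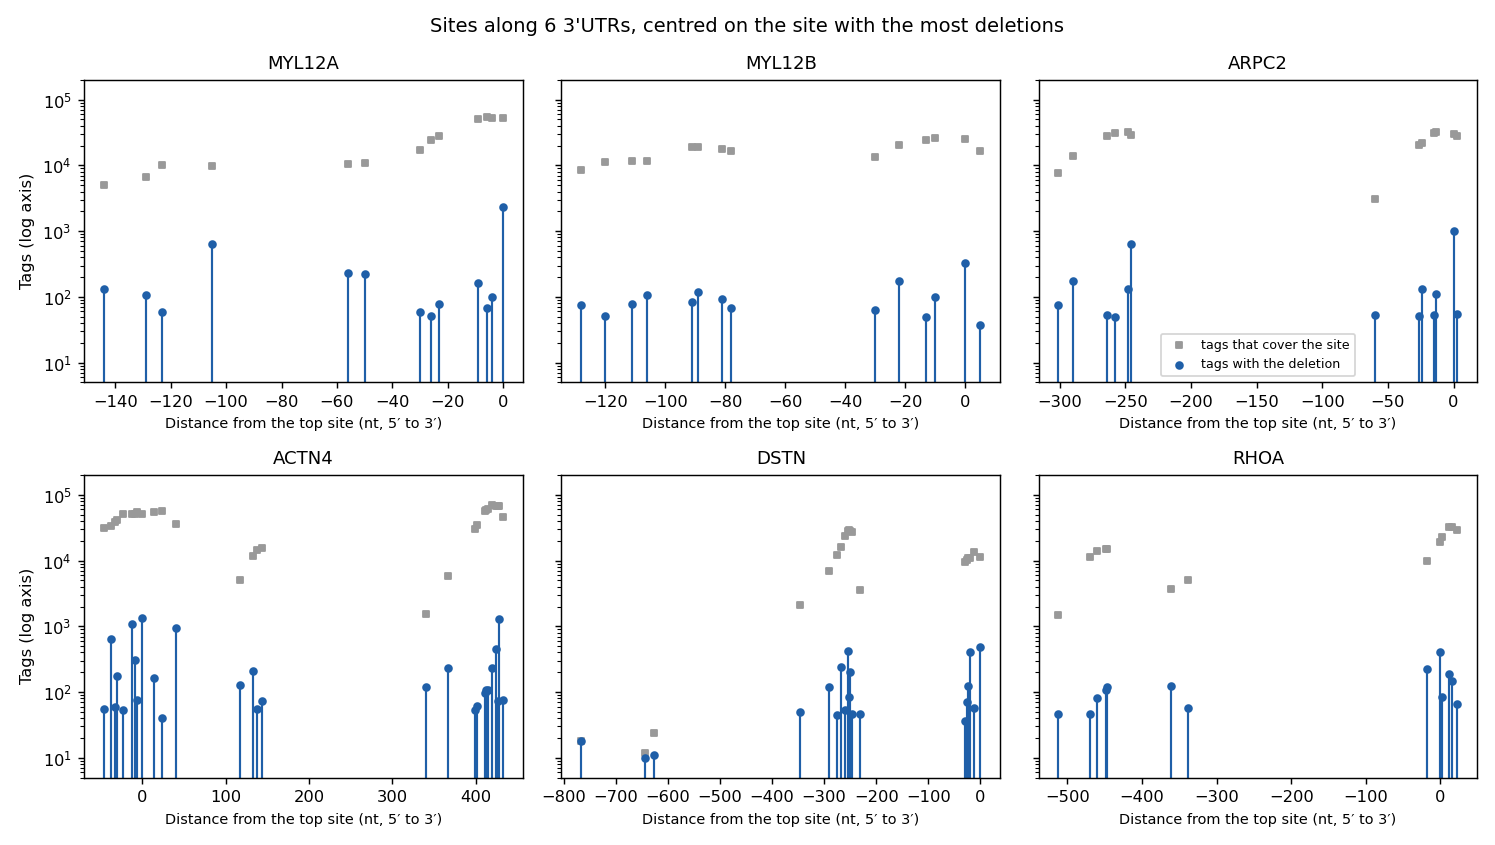
Tags that cover each 3′UTR site (grey squares) and tags with the deletion (blue stems), both on a log axis, against the distance from the site with the most deletions in 6 genes, read from 5′ to 3′. ARPC2, ACTN4, DSTN and RHOA show separate groups of sites, while MYL12A and MYL12B each hold their 3′UTR sites in 1 cluster.

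Ezrin, radixin and moesin tie filaments to the membrane. MSN had 6 sites in 1 cluster with 285 of 13208 tags (2.16%, interval 1.92 to 2.42%) at 8 nt, and EZR had 212 of 14038 (1.51%, interval 1.32 to 1.73%) at 9 nt and 95 of 3570 at 420 nt. RDX stood apart from both. It had 4 clusters in 3′UTRs, of which 3 had at most 25 tags, namely 25 of 25, 14 of 23 and 10 of 23. Its only deep site (chr11, position 110253969, 113 of 6836 tags, 1.65%, interval 1.38 to 1.98%) was 22418 nt from an annotated end. That distance runs along the genome, any introns included, and is not a length of mRNA. The site lay in coding sequence of the representative transcript.

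The deep RDX site has a counterpart in the pseudogene RDXP1 at position 4211160 of the same chromosome, where 75 of 3254 tags (2.30%, interval 1.84 to 2.88%) lacked a G. Around the 2 deletions 39 bases in a row were identical, 18 upstream and 20 downstream, so fragments of the one can be hard to tell from those of the other and both counts are uncertain. Of 143 pseudogenes named after 30 of the 49 genes, RDXP1 and TPM4P2 held a site each, 24 of 52 tags in the latter. No site was listed in the other pseudogenes, including those of ACTB and ACTG1.

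Of the focal adhesion proteins, talin and vinculin had sites and zyxin (ZYX) had none. TLN1 had 291 of 14568 tags (2.00%, interval 1.78 to 2.24%) 399 nt from its end, and no site within 100 nt of one. VCL had 15 sites in 4 clusters. The largest was 198 nt from an end with 352 of 19062 tags (1.85%, interval 1.67 to 2.05%), followed by 116 of 4758 (2.44%, interval 2.04 to 2.92%) at 95 nt and 44 of 482 at 351 nt. The last, with 21 of 21 tags, lay just past that end and 1147 nt before a later one.

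The small GTPases RHOA, RHOB, RHOC, RAC1 and CDC42 direct assembly of the filaments, and 4 of the 5 had a site near an end. RAC1 had 17 sites in 4 clusters, with 453 of 26969 tags (1.68%, interval 1.53 to 1.84%) 8 nt from its last end and 148 of 5733 (2.58%, interval 2.20 to 3.02%) 33 nt from an earlier one. Its others had 45 of 644 and 11 of 13 tags. RHOA had 13 sites in 3 clusters, with 403 of 19197 (2.10%, interval 1.91 to 2.31%) at 34 nt, 122 of 3669 (3.33%, interval 2.79 to 3.96%) at 395 nt and 121 of 15037 (0.805%, interval 0.674 to 0.961%) at 481 nt. CDC42 had 329 of 13760 (2.39%, interval 2.15 to 2.66%) at 7 nt, and RHOC 48 of 3602 (1.33%, interval 1.01 to 1.76%) at 23 nt. RHOB had no site. All 13 RHOA sites also lie within the span of another gene on the same strand, as do 12 sites of ARPC3, CDC42, ARPC1A, ARPC4 and PFN2.

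The 6 genes without a site were ARPC1B, MYL9, RHOB, TMSB4X, TPM2 and ZYX. They came from 6 different role groups. Of these 6, 5 have AATAAA or ATTAAA in the last 50 nt of the representative transcript, ARPC1B being the exception, as do 36 of the 43 genes with a site. Whether their mRNAs were present in these cells was not measured here.

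The 15 sites outside 3′UTRs were thin. Coding sequence held sites in CNN3 (44 of 44 tags), MYL12B (11 of 22), TLN1 (10 of 10) and MYL12A (7 of 7). The 5′UTR sites were in RDX (33 of 57), MYL6 (13 of 29) and PFN1 (7 of 8), and the MYL6 site is coding sequence in the representative transcript. Introns held 3 sites in ACTN1 (17 of 18, 14 of 14 and 11 of 11 tags) and 1 each in RDX (18 of 18), EZR (11 of 16) and CAPZA1 (10 of 10). Noncoding exons held sites in ARPC3 (29 of 48) and ACTN1 (13 of 13).

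The poly(A) hexamers AATAAA and ATTAAA, which direct cleavage and polyadenylation a short way downstream, were searched on the transcript strand in 25 nt on each side of the main site of each 3′UTR cluster. They were present in 44 of 79 clusters (55.7%, interval 44.7 to 66.1%), against 60.6% of 9972 clusters of all protein-coding genes. Within 100 nt of an end, 32 of 40 clusters had one (80.0%, interval 65.2 to 89.5%), against 76.6%. Farther from the next end downstream it was 12 of 39 (30.8%, interval 18.6 to 46.4%), against 40.5%. All of those 12 had deletions in under 30% of their tags, where the share was 12 of 24, against 63.9%. None of the 15 internal clusters with 30% or more had one (interval 0 to 20.4%), against 15.6%.

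For 9 of these 12 internal sites the whole hexamer fell in the 29 bases around the deletion. They are printed because they carry a poly(A) hexamer more than 100 nt from the next annotated end downstream. The ACTN1 site lies just past an earlier annotated end. Capitals here mark the hexamers, and the deleted base is base 15.
CFL1 (chr11:65854811-65854839, minus strand): ATTAAAaaaaaaaaagacaatAATAAAaa
DSTN (chr20:17607963-17607991, plus strand): agtttgcttcttatggtatAATAAAgtat
ACTN1 (chr14:68874332-68874360, minus strand): ccatgaaaatattttatgatATTAAAgaa
TLN1 (chr9:35697333-35697361, minus strand): ccAATAAAaatgattctacctacaacctc
CNN3 (chr1:94897218-94897246, minus strand): tgtttgctaatttttaAATAAAgtcatga
RHOA (chr3:49359612-49359640, minus strand): ttaccaaaAATAAAtatatctaccccaga
MYH9 (chr22:36281653-36281681, minus strand): tttttcccctttcttgtAATAAAtgataa
ACTR3 (chr2:113958215-113958243, plus strand): tttaaagcctaacattctAATAAAggcac
CAPZA2 (chr7:116918710-116918738, plus strand): cATTAAAatgcaaattttcctatttattt
Of the 9 genes with sites but none within 100 nt upstream of an annotated end, 7 had a site under 30% (ACTR3, ARPC5, CFL1, CAPZA2, ACTN1, RDX and TLN1). In 6 of those 7 a hexamer lay within 50 nt of such a site. RDX was the exception. The other 2 of the 9 genes were PFN2 and TPM3, whose sites were thin. The span of 50 nt is wider than the window used for the shares above. Within it, 65.8% of all 3′UTR clusters of the actin genes had a hexamer, against 68.3% over all protein-coding genes. The count of 6 genes has no matching share over all protein-coding genes, so it does not show an excess.

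Where the nearest hexamer started within 50 nt of the deletion, in 52 of the 79 clusters, the median start was at the deletion itself, 0 nt, with quartiles of -7.25 and 12 nt counted upstream, so that a negative value is downstream. It was 1 nt downstream in 6815 clusters of all protein-coding genes. In 14 of the 52 the hexamer started 11 to 15 nt upstream, as in ARPC2, CNN2, DSTN, TPM4 and TPM1, which is 26.9%, against 15.96% of the clusters of all protein-coding genes. In the wider span of 6 to 24 nt upstream the values were 40.4% and 37.8%.

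**Figure D4:**
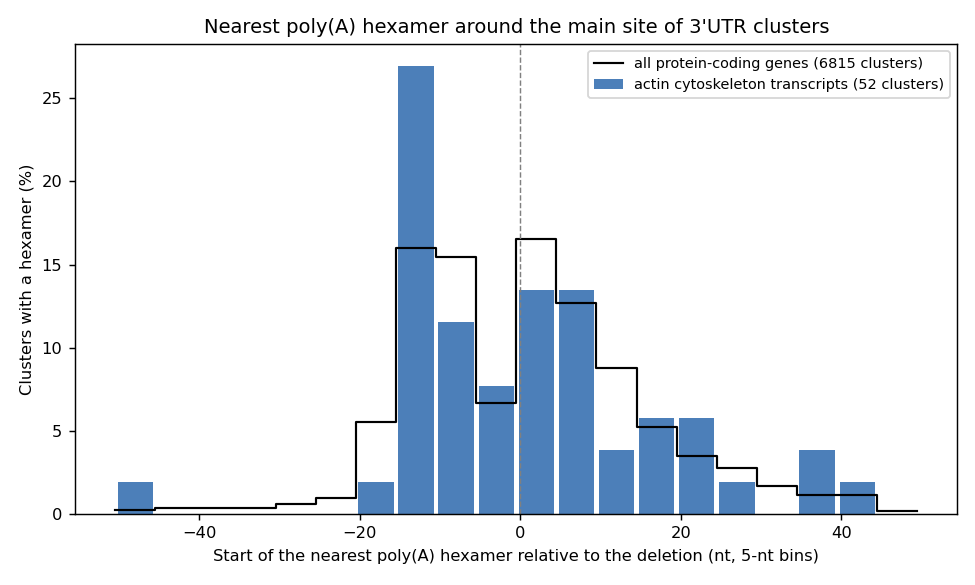
Start of the nearest AATAAA or ATTAAA relative to the deletion (nt, 5-nt bins, negative values upstream) in 52 3′UTR clusters of the actin genes (bars) and 6815 of all protein-coding genes (line), as a percentage of clusters with a hexamer within 50 nt. The tallest bar, 14 clusters, is 11 to 15 nt upstream.

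The AUA motif, 7 bases of which the first is A, G or T, the second A or T, then ATA, then A or T and a final A, was searched in the same windows and strand. It was present in 37 of 79 clusters (46.8%, interval 36.2 to 57.7%), against 47.8% of the clusters of all protein-coding genes. Some forms of the motif contain AATAAA. A match without AATAAA inside was present in 12 clusters (15.2%, interval 8.91 to 24.7%), against 14.6%. Those clusters included the printed main sites of CAPZA1 and CNN3.

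The deleted base was T in 70 of all 94 clusters (74.5%, interval 64.8 to 82.2%), against 70.0% over all protein-coding genes, A in 15, G in 6 and C in 3. It lay in a run of exactly 3 T in 25 (26.6%, interval 18.7 to 36.3%), against 31.8%, and in a run of 5 or more T in 15 (15.96%, interval 9.92 to 24.7%), against 11.0%. The printed sites of ARPC2, TPM4, MYL12A and MSN are examples of the first kind. A run of 8 or more A was present in the window of 4 3′UTR clusters (CFL1, ACTN4, ARPC2 and RAC1; 5.06%, interval 1.99 to 12.3%), against 2.56%.

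A wider list of 83 other actin genes was set beside these. In it, 63 genes had a site (75.9%, interval 65.7 to 83.8%) and 51 had one with deletions in under 30% of the tags, with 298 sites in all. In 5 of its 7 role groups, sites were present in 11 of 12 genes of the WASP and WAVE proteins and their partners, 16 of 20 filament-binding genes, 11 of 14 crosslinkers and membrane linkers, 6 of 9 formins and 6 of 9 other myosins. Among the 5 with the most deletions at a site were PLS3, plastin 3 (1452 of 53252 tags, 2.73%), TES, testin (1143 of 18670, 6.12%), WASF2, which activates Arp2/3 (822 of 13484, 6.10%) and SPTBN1, a spectrin (782 of 47887, 1.63%). The SPTBN1 site was 1780 nt from an annotated end, and the other named sites were 11 to 42 nt from one. A 3′UTR site was present in 58 of the 83 (69.9%, interval 59.3 to 78.7%), against 87.8% of the 49 genes. The 3′UTR share of sites was 86.9% in this list and 95.1% in the 49 genes, and the share under 30% was 76.5% and 89.6%. The share of 3′UTR clusters with a poly(A) hexamer was 57.0% in this list and 55.7% in the 49 genes, within each other's intervals.

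**Figure D5:**
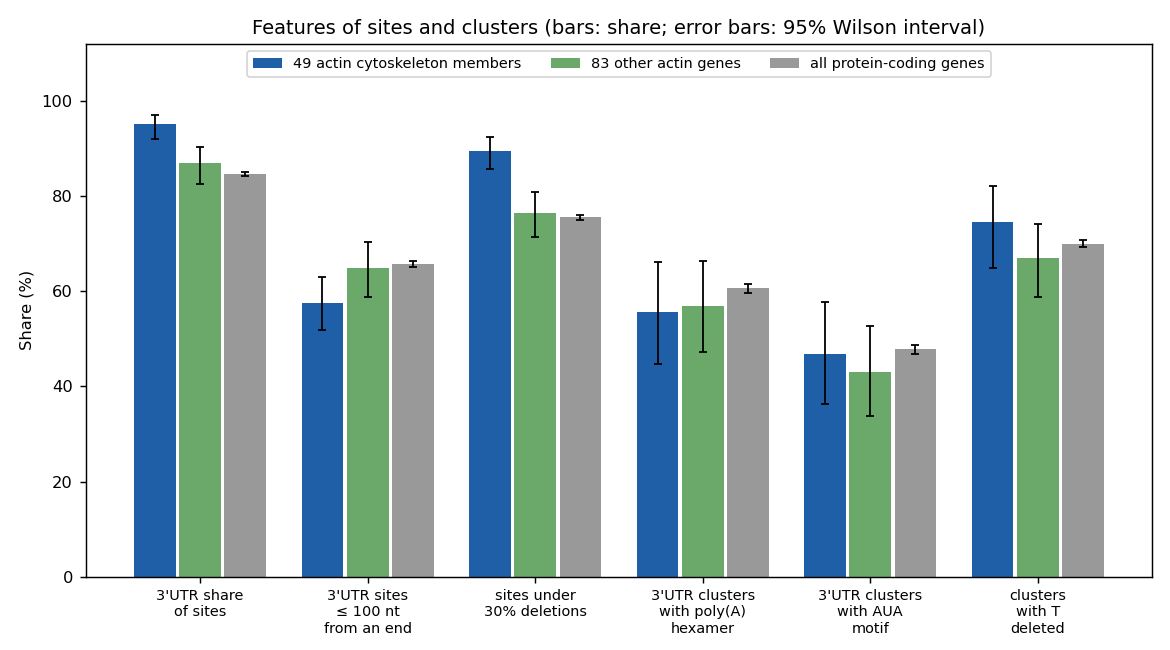
Shares of sites or clusters (%, bars, with 95% Wilson intervals) for the 49 actin cytoskeleton genes, the 83 other actin genes and all protein-coding genes. The bars for the 3′UTR share and for the share with deletions in under 30% of tags are higher in the 49 genes (95.1% and 89.6%), and the intervals of the other shares overlap between the 49 genes and the 83.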

How the data were processed

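CLIP-seq of FLAG-tagged RBMS3 was done in 2 replicates. The authors appended molecular identifiers to the reads and used the CLIP Tool Kit to align them to hg38, reduce them to unique tags, pool both replicates and call deletions, with a false discovery rate under 10% and a fold, not defined further, over 10. The deposited values are counts per site, not normalized: pooled tags that cover it and tags with the deletion. Replicates could not be compared, a site may rest on 1 of them, and library totals were not analysed here, so depth is stated as tags at each site.

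The base at the centre of each 21-nt interval was taken as the deletion, checked at the mitochondrial N at position 3107. Sites were placed on GENCODE release 44, same strand, all transcripts, with 3′UTRs first. Distance was counted along the genome, any introns included, to the next 3′ end that any transcript of the gene has downstream. A site just past an earlier end was thus not counted as near that end. A site in several genes was counted for each. Coordinates start from 1. With 1 pooled group there is no test and no p-value. Shares are set beside those of 20046 protein-coding genes. The 49 genes and all lists and alternatives were chosen with earlier results of these data known. Named are the site with the most deletions in each gene, genes with 3 or more 3′UTR clusters, sites outside 3′UTRs and, among 83 other actin genes, those among the 5 with the most deletions at a site, of which 1 is not reported here. Placement was tested on simulated data, where 1600 of 1600 sites came back in the right region, gene and distance. The software was Python 3.11.15 with matplotlib 3.10.9, pandas 2.3.3, pysam 0.24.0, numpy 2.4.6 and samtools 1.23.1.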

Additional observations from a re-analysis of the deposited data

How the results depend on the processing

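Of 64 values recomputed under other settings, 41 moved by less than their counting interval or, for counts, by less than 1.5 times. No paired analysis was possible because the deposited counts pool both replicates, and for the same reason no replicate could be left out. Keeping sites at 10% or more left 32 sites in 22 genes, of which 13 had a 3′UTR site. The 3′UTR share was then 53.1%, against 49.9% over all protein-coding genes, and 5.88% of 3′UTR sites were near an end, against 26.9%. A poly(A) hexamer was present in 0% and the AUA motif in 12.5% of 3′UTR clusters, against 25.6% and 24.6%. With under 30%, the 3′UTR share was 100% and the hexamer share 69.8%, against 97.7% and 75.6%. At 20 or more deletions a site, the 3′UTR share was 98.9%, the share under 30% was 97.9% and the hexamer share 66.7%, against 93.9%, 91.6% and 69.7% over all protein-coding genes. At 50 or more the first pair were 100% each, against 98.0% and 99.3%. Both differences from all protein-coding genes were thus smaller than without a minimum. The hexamer share was 75.5%, against 78.1%, and the AUA share 60.4%, against 59.5%. Windows of 10 nt on each side gave 25.3% for the hexamers, against 28.5%, and 20.3% for the AUA motif, against 20.6%. Matches without AATAAA gave 15.2%, against 14.6%. The share near an end was 45.5% within 50 nt, against 57.2%, and 68.5% within 200 nt, against 70.5%. It was 43.2% with 1 representative transcript per gene, against 50.2%. T made up 45.5% (5 of 11 clusters) once clusters with a deletion inside a run were left out, against 31.6%. The share under 30% has no value under the filters on percentage, which fix it. The causes were not tested. Depth limits the 32 thin sites, whose intervals are wide.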

Other observations

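Downstream of the annotated ends, within 1000 nt, 2 of the genes had a further site on the same strand. ARPC2 had one 564 nt beyond its end, where 22 of 22 tags had the deletion, and TWF1 one 165 nt beyond its end, with 11 of 11 tags. On the opposite strand the 49 genes held 3 sites, all in introns, 2 in RDX (9 of 9 and 13 of 19 tags) and 1 in VCL (19 of 19 tags).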
